A study of Arabidopsis thaliana with 4 samples.

Results

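This account follows 10 nuclear genes of photosynthesis in Arabidopsis roots and asks how their transcript levels differed between wild type and a mutant of nitrate signalling. They are PSBY, PSBW, PSAE-1, PSAN, LHCB4.1, LHCB4.2, PSB27, LPA19, RCA and PIFI, taken by name from the platform annotation, and each had 1 probe set. They are 10 of the 13286 genes that have a probe set naming a single gene with a known locus. Whole roots were cut off where they meet the hypocotyl at 5 dai, an age given with that abbreviation in the labels. One group was wild-type Col-0 (2 samples), and the other was nlp7-1 (2 samples), a mutant labelled as the same ecotype, Col-0, with no treatment in either. All plants grew on 1x MS agar at 22 °C with 16 h days, and each sample pooled about 60 roots. The mutant group stands on 1 allele of NLP7, a transcription factor of the nitrate response. No probe set names NLP7, so the genotype labels were not checked by its transcript.

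Photosynthetic complexes of the thylakoid are built from subunits encoded in the plastid and subunits encoded in the nucleus, and the latter are made in the cytosol and imported. Antenna proteins pass light energy to photosystem II and photosystem I, electrons then flow between the photosystems, and the Calvin cycle fixes carbon with RuBisCO. These genes are known for high expression in leaves, whereas most plastids of a root are not green. Light and cytokinin promote greening of roots, and auxin represses it.

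Levels are MAS5 signals, a linear intensity per probe set that Affymetrix software scales to a common level on each array. The trimmed mean was 250.0 in all 4 arrays and the median signal ran from 97.5 to 100.8. Probe sets were tested when their mean log2 signal reached the 40th percentile, a signal of 59.4, and 13648 did, the 10 described here among them. A gene is said to have fallen or risen only where limma's moderated test over those 13648 gave an adjusted p (Benjamini-Hochberg) under 0.05. Precision is limited by the number of arrays, 2 a genotype, and an exact permutation test of 1 gene could not go below p = 0.333. Each array measured a whole organ, so fewer cells expressing a gene and less RNA per cell cannot be told apart. The replicates are described as biological, without saying whether they were grown apart, so p-values rest on the spread between these samples. In the moderated test that spread is drawn toward the spread of other probe sets.

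Of the 10 genes, 1 fell in nlp7-1 and 0 rose, where 0.630% of all probe sets tested fell and 1.64% rose. The gene that fell was PIFI, which acts in electron flow outside the main photosynthetic chain. Its mutant signals lay below the filter level, and the call was lost without the filter (limma adjusted p = 0.0586). The other 9 had log2 changes from -0.64 to 0.09, and 0 of them passed. In all, 9 of the 10 lay below 0, against 50.0% of probe sets, and 4 lay below 0 at an unadjusted p under 0.05, against 5.71%. Both mutant samples were below both wild-type samples in 5 of the 10, against 20.9% of probe sets. The median log2 change was -0.46 over the 10 genes and 0.00016 over all probe sets tested. Because the genes were chosen with earlier results of these arrays known, these shares are descriptions and carry no test.

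**Figure D1:**
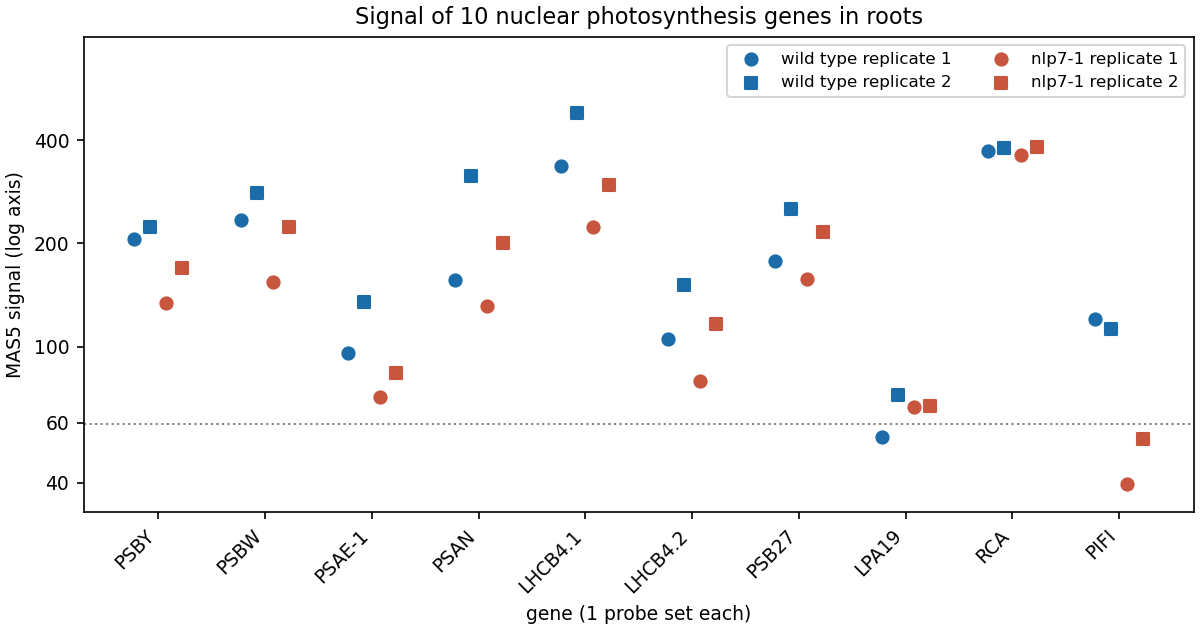
MAS5 signal on a log axis for each of the 10 genes (1 probe set each), with wild type in blue, nlp7-1 in red, replicate 1 as circles and replicate 2 as squares; the dotted line is the filter level of 59.4. PIFI shows a wide gap between genotypes, RCA has 4 nearly equal values, and for most other genes the squares sit above the circles of the same colour.

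PSBY and PSBW encode small subunits of photosystem II, which takes electrons from water. PSBY is made as a precursor that is cut into more than 1 small membrane protein, and PSBW helps hold photosystem II and its antenna together. PSBY had wild-type signals of 206 and 223 and nlp7-1 signals of 134 and 169. The genotypes did not overlap, and the gap between them was wider than that between the wild-type replicates. On the log2 scale the nearest samples of different genotype differed by -0.29, a smaller distance than the 0.34 between the nlp7-1 replicates. The log2 change was -0.51 ± 0.16 (SE, 95% interval -0.89 to -0.14), with an unadjusted p = 0.0154 that did not hold after adjustment (limma adjusted p = 0.225). The wild-type signals of PSBW were 234 and 280, and those in nlp7-1 were 155 and 223. Here too the genotypes did not overlap, but the higher mutant sample came close to the lower wild-type sample. Its log2 change was -0.46 ± 0.20 (limma adjusted p = 0.401). Leaving out nlp7-1 replicate 1 gave -0.20, and leaving out nlp7-1 replicate 2 gave -0.73.

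PSAE-1 and PSAN encode subunits of photosystem I, which passes electrons to ferredoxin. The PsaE protein lies on the stromal side where ferredoxin docks, and PsaN lies in the lumen on the side of plastocyanin. The signals of PSAE-1 were 95.6 and 135 for wild type, against 71.1 and 83.5 for nlp7-1. All 4 values were modest, and the genotypes did not overlap. The log2 change was -0.56 ± 0.21, with an unadjusted p = 0.0378 and a limma adjusted p = 0.341. PSAN had the widest spread between wild-type replicates among the 10 genes, with signals of 156 and 314, and 131 and 200 in nlp7-1. The genotypes overlapped, since wild type replicate 1 was below nlp7-1 replicate 2. The log2 change of PSAN was -0.45 ± 0.35 (limma adjusted p = 0.650), and without wild type replicate 2 it was 0.05, with the sign turned.

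LHCB4.1 and LHCB4.2 encode forms of CP29, a minor antenna protein between the main light-harvesting complex and the core of photosystem II. LHCB4.1 had wild-type signals of 336 and 479, and 224 and 296 were measured in nlp7-1. The genotypes did not overlap, but the wild-type samples lay further apart than the nearest samples of different genotype. Its log2 change, -0.64 ± 0.21 (SE, 95% interval -1.16 to -0.13), had an unadjusted p = 0.0223 and did not pass (limma adjusted p = 0.265). Without wild type replicate 1 the change was -0.90, in a fit whose spread comes from the mutant pair alone. Leaving out wild type replicate 2 gave -0.39, and leaving out nlp7-1 replicate 1 gave -0.44. For LHCB4.2 the values were 105 and 151 in wild type, against 79.4 and 116 in nlp7-1. Its genotypes overlapped, and its log2 change was -0.39 ± 0.25 (limma adjusted p = 0.581), with values from -0.67 to -0.12 when 1 sample was left out. LHCB4.3, a further gene of the family looked at after its values were seen, lay below the filter, with wild-type signals of 59.4 and 48.5 and nlp7-1 signals of 46.2 and 58.5. The LHCB4 genes are close relatives, and how far their probes share targets was not tested.

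PSB27 and LPA19 encode related lumenal proteins of photosystem II assembly. PSB27 acts in recovery of photosystem II after damage, and LPA19 in the C-terminal processing of its D1 protein. PSB27 had wild-type signals of 178 and 252, and nlp7-1 had 157 and 215. Within each genotype the samples differed more than the genotype means did, and the genotypes overlapped. Its log2 change was -0.20 ± 0.22 (limma adjusted p = 0.761). Leaving out wild type replicate 2 gave 0.05, and leaving out nlp7-1 replicate 1 gave 0.02. LPA19 lay close to the filter level, with wild-type signals of 54.5 and 72.0 and nlp7-1 signals of 66.7 and 67.0. Both mutant values sat between the wild-type values. The log2 change of LPA19 was 0.09 ± 0.21 (limma adjusted p = 0.896), and without wild type replicate 1 it turned to -0.11.

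RCA encodes RuBisCO activase, which frees the active sites of RuBisCO from bound sugar phosphates. Wild-type signals were 371 and 379, and those of nlp7-1 were 361 and 381. These were the most even values among the 10 genes, and the genotypes overlapped. The log2 change was -0.02 ± 0.11 (limma adjusted p = 0.970). Its 95% interval, -0.29 to 0.26, was the narrowest of the 10, and these values cannot tell apart changes within it, in either direction. Without nlp7-1 replicate 1 the change was 0.02.

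PIFI encodes a plastid protein named for its mutant's altered rise in chlorophyll fluorescence after illumination, and acts in non-photochemical reduction of plastoquinone. Wild-type roots had signals of 121 and 113, and nlp7-1 roots had 39.7 and 53.6. Both mutant values were below the filter level of 59.4 and both wild-type values were well above it, so the gene was tested because of its wild-type level. Means were 117 ± 5.64 for wild type and 46.6 ± 9.83 for nlp7-1 (SD, n = 2), and PIFI fell by 1.34 ± 0.21 on the log2 scale (SE, limma adjusted p = 0.0352). Set against each wild-type sample in turn, either mutant sample was lower by a log2 difference of -1.07 or beyond. The call was lost without a filter on low signals (limma adjusted p = 0.0586). It was also lost without the chromosome 1 genes from AT1G20910 to AT1G27530, raised as a block in nlp7-1 (limma adjusted p = 0.0556). That fit left the log2 change at -1.34 but called 105 probe sets and not 310. An unmoderated test lost the call too (adjusted p = 0.437), but there 0 of all 13648 probe sets passed. With 1 sample left out, the log2 change ran from -1.55 to -1.12. With a pseudocount of 100, which shrinks low signals, the log2 change was -0.56 and still passed (limma adjusted p = 0.0283).

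**Figure D2:**
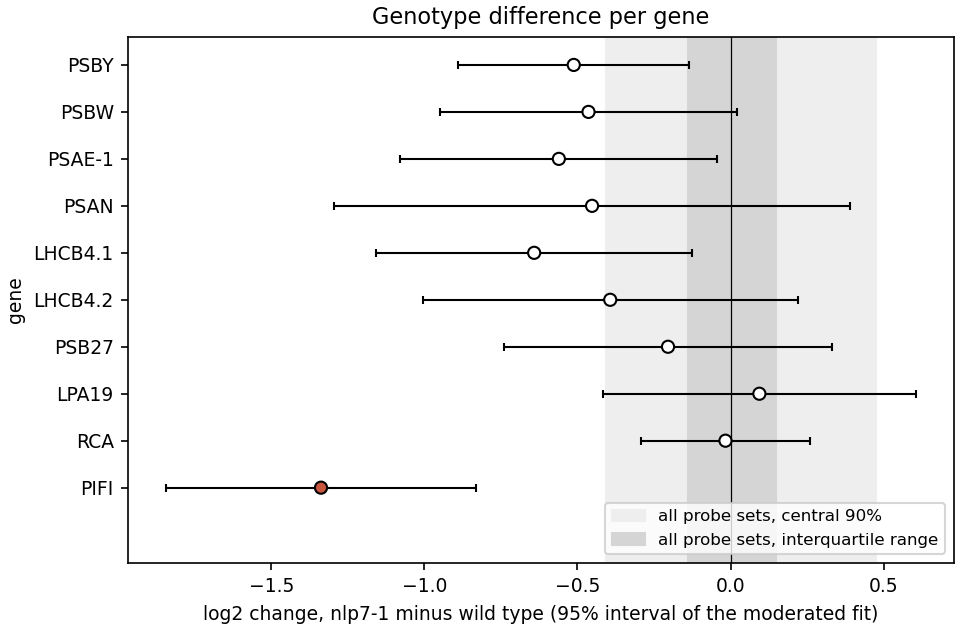
Log2 change of each gene in nlp7-1 relative to wild type, with the 95% interval of limma's moderated fit (2 samples a genotype). The filled point, PIFI at -1.34, passed the test as designed, though not without the filter on low signals, and open points did not; grey bands show the interquartile range and the central 90% of the 13648 probe sets tested.

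The genes also differed between replicates of the same genotype, and by about as much as between genotypes. Wild type replicate 2 was above wild type replicate 1 in 9 of the 10 genes, against 48.7% of probe sets, with PIFI the exception. In nlp7-1, replicate 2 was above replicate 1 in 10 of 10, against 50.7%, although LPA19 and RCA differed there by only 0.0059 and 0.08 on the log2 scale. Replicate 2 was the higher in both genotypes for 9 of the 10 genes, against 31.1% of probe sets. Replicates differed by a median of 0.45 on the log2 scale for wild type and 0.42 for nlp7-1, beside a median genotype difference of -0.46. Over all probe sets tested, the median differences between replicates were -0.0080 and 0.0038.

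**Figure D3:**
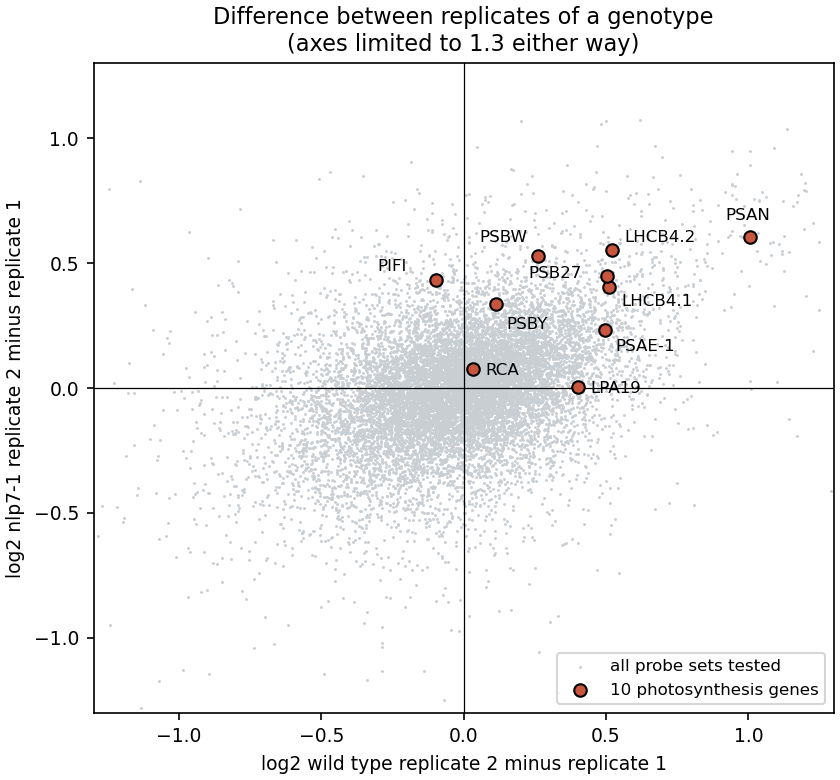
Log2 difference between replicate 2 and replicate 1 in wild type (horizontal) and in nlp7-1 (vertical), with all probe sets tested in grey and the 10 genes in red; probe sets beyond 1.3 are not shown. Of the 10 genes, 9 lie above and to the right of 0, and PIFI lies to the left.

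Ordered by sample, wild type replicate 2 had the highest signal in 8 of the 10 genes and nlp7-1 replicate 1 the lowest in 9. Among all probe sets these arrays were highest in 28.9% and lowest in 24.6%. The median deviation from each gene's own mean was 0.41 on the log2 scale in wild type replicate 2 and -0.45 in nlp7-1 replicate 1. The other samples, wild type replicate 1 and nlp7-1 replicate 2, had medians of 0.01 and 0.03, and wild type was the higher of that pair in 5 of the 10 genes, against 48.8% of probe sets. Leaving out a sample moved the median genotype difference accordingly. Leaving out wild type replicate 2 gave -0.22, and leaving out nlp7-1 replicate 1 gave -0.17. The value was -0.62 when wild type replicate 1 was left out, and -0.68 for nlp7-1 replicate 2. Compared sample by sample, the median nlp7-1 minus wild type difference was -0.42 between the replicates 1 and -0.39 between the replicates 2. It was -0.89 between nlp7-1 replicate 1 and wild type replicate 2, and -0.016 between nlp7-1 replicate 2 and wild type replicate 1. Over all probe sets tested, these medians ran from -0.00032 to 0.010. Labels do not say that replicate numbers pair the samples.

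**Figure D4:**
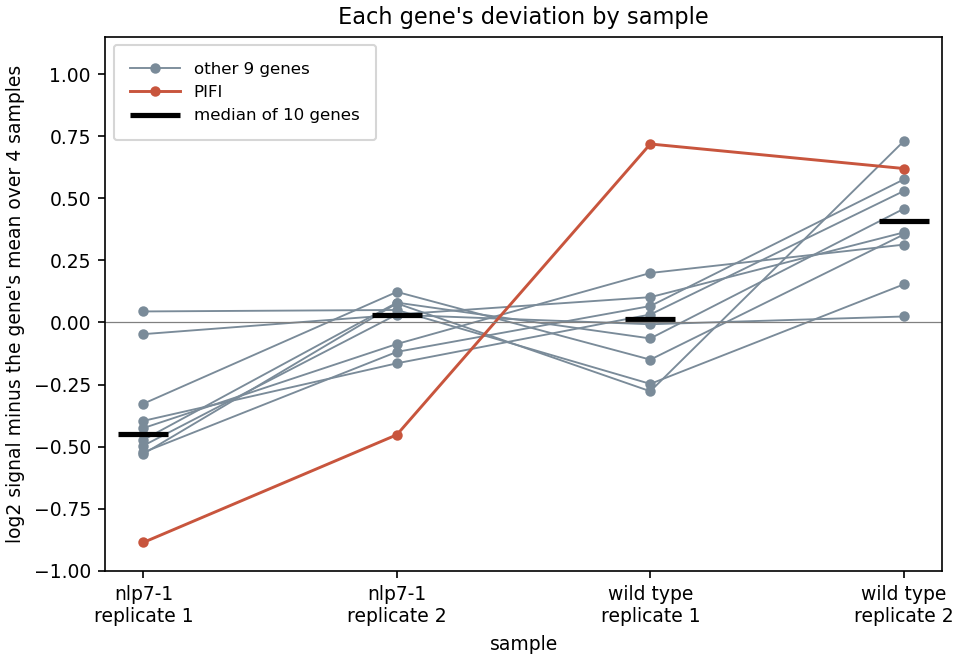
Log2 signal of each gene minus its own mean over the 4 samples; lines join the values of 1 gene and do not mark a sequence, and black bars are medians of the 10 genes. The median is -0.45 in nlp7-1 replicate 1, 0.41 in wild type replicate 2 and near 0 in the other samples, while PIFI separates by genotype.

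Some control values of the arrays moved with these differences and others did not. The ratio of 3' to 5' signal of an actin control, a sign of RNA integrity, was 1.97 and 2.75 for wild type, against 2.23 and 2.49 for nlp7-1, so it was also higher in replicate 2 of both genotypes. For another actin pair it was 9.88 and 15, and 12.3 and 12.6, and for GAPDH 1.37 and 1.28, and 1.28 and 1.57. Another GAPDH pair was nearly level, from 0.934 to 0.941 over the 4 arrays. The part of RNA integrity in the results was not tested. EXPA7 and EXPA18, expansin genes of root hairs, were the members of the 24 root markers that had a usable named probe set. Their summed signal ran the opposite way to the photosynthesis genes, at 1009 and 677 for wild type, against 1166 and 915 for nlp7-1. Neither passed, with log2 changes of 0.29 ± 0.22 and 0.36 ± 0.22 (limma adjusted p = 0.643 and 0.565), and their part in the result was not tested.

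Markers of shoot tissue outside photosynthesis were also examined. Of the 22 listed, 5 had a usable named probe set (YAB3, YAB5, SPCH, MUTE and FAMA, the last listed as FMA), and 0 reached the filter level. Their signals summed to 59.8 and 64.5 for wild type, against 54.7 and 58.9 for nlp7-1, higher in replicate 2 of both genotypes. Among the 5, only MUTE was itself higher in both, at 6.27 and 16.7 for wild type and 2.68 and 6.63 for nlp7-1. YAB5 was lower in replicate 2 of both genotypes, and YAB3, FAMA and SPCH went opposite ways in the genotypes. All of these signals were low. SPCH, which starts the stomatal lineage, had signals from 1.95 to 3.24. These 5 genes act in leaf polarity and stomata, and markers of the hypocotyl were not among them. The part of shoot tissue in the results was not tested.

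The rest of the pathway was described from lists of nuclear genes by role. Of 200 further list entries, 33 had a named probe set and 22 of these passed the filter, of which 0 rose and 0 fell in limma. At an unadjusted p under 0.05, 3 of the 22 were lower and 0 higher, against 5.71% and 7.50% of probe sets. The median log2 change of the 22 was -0.10, with 16 below 0. No further listed subunit of photosystem I or photosystem II had a probe set under its name.

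Among other genes of electron transport, 4 were tested, 4 lay below 0 and 0 passed. ATPC1, the gamma subunit of the plastid ATP synthase, had wild-type signals of 695 and 962 and nlp7-1 signals of 510 and 460. The genotypes did not overlap, and the log2 change was -0.76 ± 0.17 (unadjusted p = 0.00415, limma adjusted p = 0.114). Its relative ATPC2 had -0.29 ± 0.15 (limma adjusted p = 0.474). Of 6 further thylakoid genes tested, 5 lay below 0 and 0 passed. CURT1C, of the family that curves thylakoid membranes, had wild-type signals of 113 and 147 and nlp7-1 signals of 68.1 and 76.7, without overlap. Its log2 change was -0.84 ± 0.19 (unadjusted p = 0.00368, limma adjusted p = 0.106), and TROL, which anchors ferredoxin reductase, had -0.40 ± 0.17 (0.390).

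Of 4 other assembly factors tested, 2 lay above 0 and 2 below, with a median of 0.03, and 0 passed. PAM68, an assembly factor of photosystem II, had 0.32 ± 0.22 (limma adjusted p = 0.603), and LPA1 had 0.09 ± 0.14 (0.847). In chlorophyll synthesis 5 of 7 tested genes lay below 0 and 0 passed. PORB, which makes chlorophyllide in the light, had wild-type signals of 95.1 and 115 and nlp7-1 signals of 74.7 and 78.4. Its log2 change was -0.45 ± 0.17 (unadjusted p = 0.0379, limma adjusted p = 0.342), and HEME2, of the porphyrin steps, had -0.22 ± 0.14 (0.564).

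PRK and SBPASE, Calvin cycle enzymes looked at after their values were seen, were below the filter in mean signal, at 21.5 to 43.7 and 29.6 to 58.0 over the 4 samples. HYH, a bZIP regulator of light responses, was the only regulator of 22 listed that had a named probe set. Its log2 change was 0.31 ± 0.22 (limma adjusted p = 0.623), and HPR, a photorespiration gene, had 0.06 ± 0.34 (0.962). For plastid housekeeping, 4 of 34 entries were tested and 0 passed, with a median of -0.15. FUG1, a plastid translation initiation factor, had -0.24 ± 0.12 (limma adjusted p = 0.462) and FTSZ2-2, of plastid division, -0.21 ± 0.16 (0.640).

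The plastid genome encodes the partners of these subunits. Of 43 plastid-encoded photosynthesis probe sets, 30 passed the filter, 30 of these lay below 0 (50.0% of all probe sets did), and their median log2 change was -0.33. Of the 30, 2 fell in nlp7-1, against 0.630% of all probe sets, and 0 rose. At an unadjusted p under 0.05, 14 were lower, against 5.71%. psaB, a core protein of photosystem I, fell by 0.82 on the log2 scale, from 1843 and 1980 in wild type to 1037 and 1126 in nlp7-1 (limma adjusted p = 0.0216). rbcL, the large subunit of RuBisCO, fell by 0.77, from 263 and 284 to 173 and 149 (limma adjusted p = 0.0484). Replicate 2 exceeded replicate 1 in 23 of the 30 in wild type and in 20 of the 30 in nlp7-1. The difference between the nuclear and the plastid-encoded genes was not tested.

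**Figure D5:**
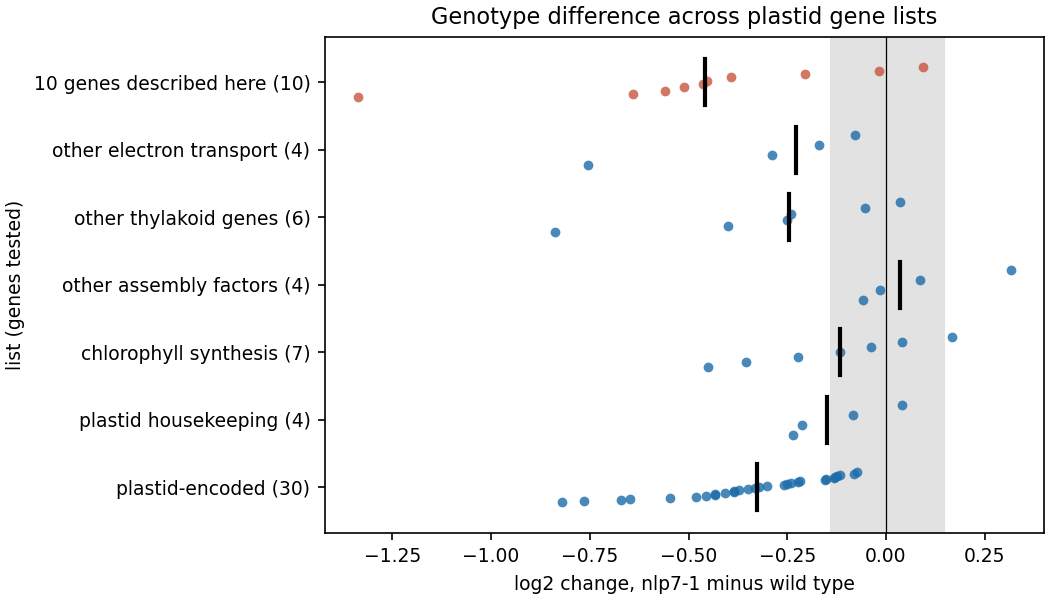
Log2 change in nlp7-1 relative to wild type of every tested gene of the 10 and of 6 lists, with black bars at list medians and the grey band holding the interquartile range of all probe sets. The medians run from -0.46 for the 10 genes to 0.03 for other assembly factors, and 30 of 30 plastid-encoded genes lie below 0.

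The 10 genes lie on all 5 chromosomes, and 0 of them fall in the chromosome 1 stretch from AT1G20910 to AT1G27530. PSBY (AT1G67740), PSB27 (AT1G03600) and LPA19 (AT1G05385) are on chromosome 1, PSBW (AT2G30570) and RCA (AT2G39730) on chromosome 2, and LHCB4.2 (AT3G08940) and PIFI (AT3G15840) on chromosome 3. PSAE-1 (AT4G28750) is on chromosome 4, and LHCB4.1 (AT5G01530) and PSAN (AT5G64040) are on chromosome 5.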

How the data were processed

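The authors deposited 1 linear intensity for each probe set and array, computed by MAS5 (version unstated) per the submitters' processing notes. Of 22810 probe sets, 64 controls were left out. GEO's platform annotation names 1 gene for 13513, and 13436 were placed by gene identifier in the RefSeq gene table of TAIR10.1, used only for names and chromosomes. Intensities were log2-transformed without a pseudocount, filtered at the 40th percentile of mean log2 signal, and compared between genotypes with limma 3.58.1 in R 4.3.3 (lmFit, and eBayes with a trended prior). Tests were two-sided and adjusted by Benjamini-Hochberg over 13648 probe sets. The fit was tested on 10 simulated data sets, each with 200 changed probe sets and independent samples. They held no difference shared by replicate number, so they do not cover such a difference in these arrays. Lists used the brightest probe set per gene and were matched by symbol or synonym; 1 marker symbol that the table gives to another gene was left out. The text names all 10 genes, and of each list those past the test and up to 2 with the smallest p. The genes and lists were chosen with earlier results of these data known, and the list of further thylakoid genes was added after the files were seen. Alternatives were other filters, pseudocounts, scalings and variance priors, a replicate block, a fit without the raised chromosome 1 genes, and each sample left out.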

Additional observations from a re-analysis of the deposited data

How the results depend on the processing

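Of the 10 genes, 1 passed in limma as designed, and 1 with pseudocounts of 32 and 100, quantile normalization, median centring or no trend. The count was 0 without a filter and with the filter at the median (which dropped PIFI). It was 0 without the chromosome 1 genes, a fit that called 105 of all probe sets and not 310. It was also 0 in the unmoderated test, where 0 of all 13648 probe sets passed. Counts are not given for the fits with a sample left out, which have 1 sample in a group. The labels do not say that replicate numbers pair the samples, but replicate differences of the genotypes correlated at 0.436 across probe sets. With the replicate number as a block, 4 of the 10 passed, all lower (PSBY, PSBW, LHCB4.1 and PIFI, limma adjusted p = 0.0265, 0.0371, 0.00324 and 0.00153), and 2 of the other 22 pathway genes, in a fit that called 1290 probe sets and not 310, with 4.32% of all probe sets called lower. In the other alternatives with all samples, 0 of the pathway genes passed. The median log2 change of the 10 ran from -0.47 to -0.29 with all samples and from -0.68 to -0.17 with 1 left out. Signs turned only with a sample left out: PSAN ran from -0.96 to 0.051, PSB27 from -0.46 to 0.048, LPA19 from -0.11 to 0.29 and RCA from -0.055 to 0.022. The cause was not tested. LPA19 and the mutant signals of PIFI lie near or below the filter level, where signals are least certain.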
